A study of Homo sapiens with 95 samples.

Results

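The response of PIK3CA overexpressing bronchial epithelial cells to benzo(a)pyrene (BaP) was read from 6 of the 95 libraries of the series, the 3 labelled PIK3CA and BaP and the 3 labelled PIK3CA and DMSO, and members were chosen by these labels alone. All lines were derived from AALE, an immortalized human bronchial epithelial cell line, and were read by sparse full length (SFL) RNA-seq on ribosomal-depleted RNA. Each of the 8 lines met 4 treatments: BaP, DMSO, cigarette smoke condensate (CSC) at 24 μg/ml, and NNK, a tobacco nitrosamine, at 490 μM. The PIK3CA line overexpressed PIK3CA and was plated for 24 h before it received 173 μM BaP or the solvent DMSO. Its vector control, the HcRed line, carried a fluorescent reporter in place of the gene and received the same dose, again with 3 BaP and 3 DMSO libraries, and no library is shared between both lines. The other 6 lines overexpressed NRF2, FGFR1 or NRG1, lost FAT1 or CDKN2A by CRISPR knockout, or carried GFP as the knockout control. The sources used here give neither the allele of PIK3CA nor the length of the exposure, nor whether a line is 1 clone. The study describes the libraries of a group as biological replicates. The labels do not say that they came from separate cultures, so p-values rest on the spread between these libraries, part of which may be technical. The fit (limma-voom) pools that spread over genes, so the SE and p-value of 1 gene do not measure its own spread alone.

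BaP is a polycyclic aromatic hydrocarbon of tobacco smoke. It binds the aryl hydrocarbon receptor (AhR), which sits in the cytoplasm with HSP90 and moves to the nucleus on ligand binding, where it pairs with ARNT and occupies short DNA elements around the letters GCGTG. Its targets include CYP1A1 and CYP1B1, enzymes that oxidize BaP into forms that react with DNA, and the repressors TIPARP and AHRR, which limit the receptor. PIK3CA encodes the alpha catalytic subunit of PI3K, a lipid kinase upstream of AKT and mTOR, which drives growth and restrains FOXO transcription factors.

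Promoters of 3 genes that rose are shown because they hold the letters that the AhR and serum response families are known to read. Each is the 250 bases before the transcription start, 5′ to 3′ on the gene's strand, from RefSeq on GRCh38.p14. Capitals mark GCGTG on either strand (written CACGC on the other) in CYP1A1, at chr15:74725529-74725778 on the minus strand, and in TIPARP, at chr3:156674340-156674589 on the plus strand, the first of 3 starts listed for the gene. In EGR1, at chr5:138465229-138465478 on the plus strand, capitals mark CArG boxes, the element of serum response factor.
CYP1A1: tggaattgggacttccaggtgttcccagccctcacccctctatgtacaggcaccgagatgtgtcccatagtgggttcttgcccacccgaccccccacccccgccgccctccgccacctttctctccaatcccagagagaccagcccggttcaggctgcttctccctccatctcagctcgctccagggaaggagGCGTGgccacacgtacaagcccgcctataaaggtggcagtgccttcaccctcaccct
TIPARP: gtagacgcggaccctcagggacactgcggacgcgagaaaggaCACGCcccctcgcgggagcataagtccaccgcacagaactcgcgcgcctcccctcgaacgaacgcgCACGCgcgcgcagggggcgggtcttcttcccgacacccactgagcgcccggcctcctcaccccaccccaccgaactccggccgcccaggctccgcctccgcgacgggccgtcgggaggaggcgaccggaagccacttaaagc
EGR1: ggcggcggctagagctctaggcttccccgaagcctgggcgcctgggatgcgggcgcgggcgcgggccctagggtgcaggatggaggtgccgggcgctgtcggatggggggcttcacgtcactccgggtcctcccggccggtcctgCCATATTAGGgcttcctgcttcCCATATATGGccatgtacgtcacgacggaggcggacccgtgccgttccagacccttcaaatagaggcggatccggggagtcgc
The core began 57 bases before the start of CYP1A1 and 208 and 142 bases before that start of TIPARP, whose other 2 windows hold none, and the CArG boxes 105 and 83 bases before that of EGR1. A CArG box was also found 34 bases before the start of CYP1A1, over its TATA element. The best known response elements of CYP1A1 lie further upstream than this window. Other genes that rose lacked the letters within these 250 bases: the window of NQO1, also an AhR target, held no GCGTG, and that of FOS no CArG box. Sites further upstream were not searched, so neither gene can be said to lack them. These letters are common: GCGTG was found in 45.1% of the 10509 tested genes with a promoter entry, in 46.4% of 603 genes that rose with BaP in PIK3CA cells and in 47.8% of 609 that fell, and in 31.9% of all 27305 RefSeq promoters. CArG boxes were rarer, in 0.98% of the tested genes, 2.16% of those that rose, 0.985% of those that fell and 1.14% of all RefSeq promoters.

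Total counts in PIK3CA cells were 763131 to 999247 with BaP and 1037330 to 1528287 with DMSO, so every BaP library was shallower, and 3 counts stood for 1.96 to 3.93 CPM (counts scaled to the library's total). In HcRed cells the totals were 460538 to 1494564. PIK3CA itself had 626, 769 and 600 counts in the DMSO libraries of its line and 477, 418 and 400 in the BaP libraries, or 9.06 to 9.28 against 8.92 to 9.04 log2 CPM, and 45 to 150 counts in the 6 HcRed libraries. Its level was lower in every BaP library of the PIK3CA line, but the change did not pass the test (log2 fold change -0.14, limma-voom adjusted p = 0.147). All 17 markers of basal airway cells were measured and together took 9438 to 10091 CPM with DMSO and 9174 to 9711 with BaP, led by KRT5, the basal keratin, at 2216 to 4365 counts. SCGB1A1 (secretory), DNAI1 (ciliated), SFTPC and AGER (alveolar), COL3A1 (fibroblast), PECAM1 (endothelial) and PTPRC (immune) had no read in any of the 6 libraries. Each of these lists held 10 markers, of which 8 secretory, 3 ciliated, 4 alveolar, 4 fibroblast, 5 endothelial and 5 immune markers were at 0 throughout. The summed levels with DMSO and BaP were 15-19 and 13-14 CPM (ciliated), 91-97 and 91-117 (alveolar), 13-16 and 18-22 (fibroblast) and 18-22 and 26-38 (immune), and the secretory and endothelial sums reached at most 7.86 and 10.01. The fibroblast and immune sums were thus higher in every BaP library, and their part in the results was not tested. In bulk RNA, fewer cells of a type and less RNA per cell cannot be told apart.

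BaP changed 1540 of the 14132 genes tested in PIK3CA cells (10.9%) at an adjusted p under 0.05 by limma-voom. Of these, 777 rose (5.5% of genes tested), by a median of 0.60 on the log2 scale, and 763 fell (5.4%), with a median of -0.40. Large changes lay mostly on the side of the rises, with 119 genes past a log2 fold change of 1 and 22 past -1. The change followed base composition in both lines: across genes, Spearman's rho between the log2 fold change and the gene's GC content was 0.536 in PIK3CA cells and 0.457 in HcRed cells, as a description over genes, which are not independent. The mean GC content of the reads' genes rose with it, from 47.4-47.6% in the DMSO libraries to 48.5-48.7% in the BaP libraries of PIK3CA cells. It was 48.9-49.0% with CSC and 48.2-49.0% with NNK. After a correction for GC content and length, which 13251 of the genes allowed, 315 genes (2.38%) passed, 124 higher (0.936%) and 191 lower (1.44%), and 235 of the 315 had also passed without it. The part of base composition in the other calls was not tested, so the count of each gene list is given with and without the correction. These counts stand against the shares of all genes above, 5.5% higher and 5.4% lower, or 0.936% and 1.44% after the correction.

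**Figure D1:**
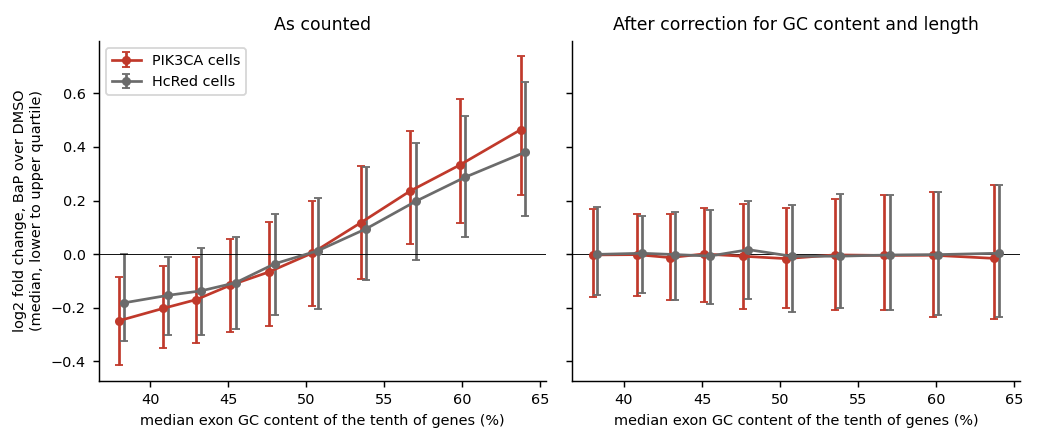
Median log2 fold change (BaP over DMSO) of genes in 10 bins of gene GC content (x axis, percent), for PIK3CA and HcRed cells, before and after the correction for GC content and length. Before it, the medians in PIK3CA cells run from -0.25 in the bin of lowest GC content to 0.46 in the highest, and in HcRed cells from -0.18 to 0.38.

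AhR targets rose, led by CYP1A1 and CYP1B1. Of 11 tested targets 5 rose and none fell, with and without the correction, against 7 in HcRed cells, where 2.67% of all genes rose and 2.05% fell. The median log2 fold change was 0.95 in PIK3CA and 1.20 in HcRed cells, and -0.0016 and 0.005 over all genes. CYP1A1, the main BaP oxidizing enzyme of the airway (hg19 chr15:75011883-75017877, minus strand), had 6, 8 and 6 counts in the DMSO libraries and 103, 109 and 114 in the BaP libraries of PIK3CA cells. On the log2 scale these were 3.01, 2.94 and 2.96 CPM against 6.74, 7.11 and 7.24, so the groups lay far apart with little spread in either. The fitted log2 fold change was 4.40 ± 0.34 (SE, limma-voom adjusted p = 5.79e-16, n = 3 against 3 here and throughout), and 4.27 after the correction. HcRed cells had 2, 0 and 0 counts with DMSO and 335, 390 and 155 with BaP, or 7.92, 8.05 and 8.33 log2 CPM. The ratio of pooled CPM was 23.4 in PIK3CA cells (exact 95% interval 14.9 to 38.8, for counting error only) and 380 in HcRed cells (105 to 3140). The vector control thus started lower and ended higher, though its own starting level rests on 2 reads.

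CYP1B1, which also oxidizes BaP (hg19 chr2:38294116-38337044), rose from 5.72, 5.54 and 6.09 log2 CPM to 8.32, 8.43 and 8.53, a log2 fold change of 2.72 ± 0.13 (limma-voom adjusted p = 4.53e-26), against 3.11 in HcRed cells, whose BaP libraries reached 9.70 to 9.99. TIPARP, an ADP-ribosyltransferase that shuts the receptor down, rose from 6.96, 6.84 and 7.01 to 8.24, 8.11 and 8.20 log2 CPM, by 1.29 ± 0.10 against 1.55 in HcRed cells. NQO1, a quinone reductase that both AhR and NRF2 are known to induce, rose from 7.01-7.26 to 7.98-8.15 log2 CPM, by 0.95 against 1.20. SLC7A5, an amino acid transporter, rose by 0.62 against 0.57, and by 0.28 after the correction. The groups of BaP and DMSO libraries did not overlap for any of these genes.

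AHRR and ALDH3A1 rose in HcRed cells, did not pass the test in PIK3CA cells, and had few reads there. AHRR, the receptor's repressor, had 2, 1 and 4 counts with DMSO and 3, 8 and 7 with BaP in PIK3CA cells, a log2 fold change of 1.74 with a limma-voom adjusted p of 0.0756, and it passed the threshold without BaP replicate 1 (2.34, adjusted p = 0.0165). In HcRed cells its counts were 6, 1 and 0 against 27, 23 and 11. ALDH3A1, an aldehyde dehydrogenase, had 2, 3 and 1 counts against 2, 2 and 5 in PIK3CA cells, a pooled ratio of 2.15 (0.684 to 7.35), and 20, 7 and 8 against 83, 74 and 30 in HcRed cells, a ratio of 4.61 (3.20 to 6.82). The intervals of the lines overlap for both genes, and the test of the difference between the lines passed for neither. UGT1A6, SERPINB2, CYP2S1 and LPCAT2 did not pass the test in PIK3CA cells, with log2 fold changes of 0.94, 1.19, -0.15 and -0.18. CYP1A2 had 1 read in the 6 libraries and was not tested.

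**Figure D2:**
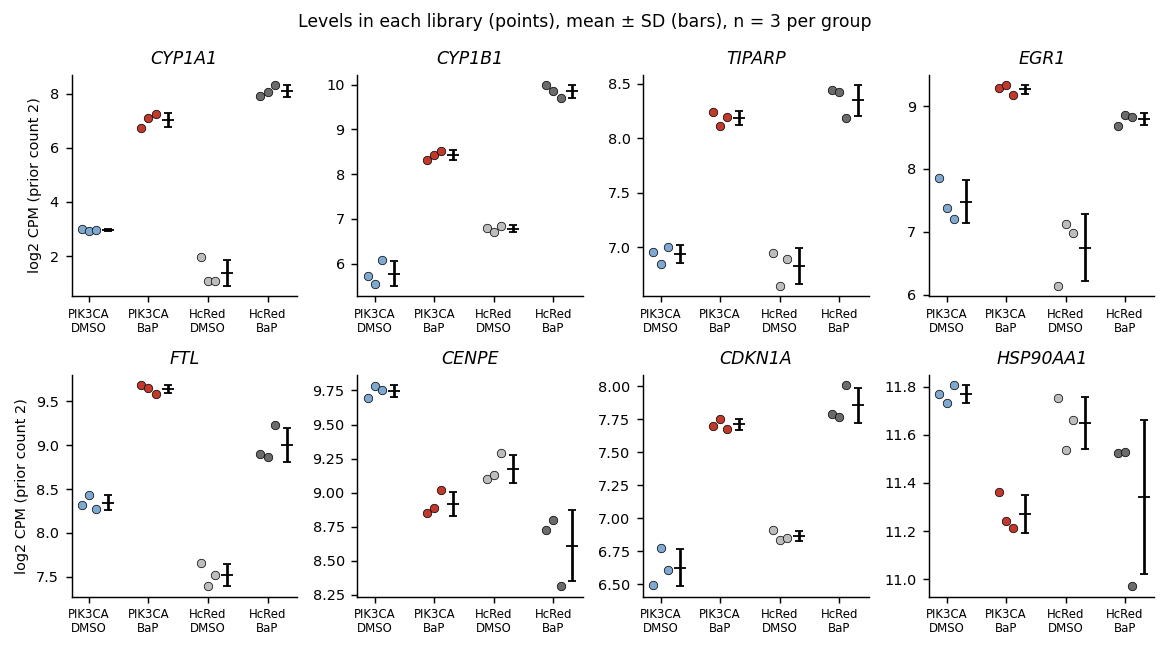
Level (log2 CPM, y axis) of CYP1A1, CYP1B1, TIPARP, EGR1, FTL, CENPE, CDKN1A and HSP90AA1 in each DMSO and BaP library of HcRed and PIK3CA cells. Points are libraries (3 per group) and bars the mean ± SD. With BaP, CYP1A1 and CYP1B1 are lower in all 3 PIK3CA libraries than in all 3 HcRed libraries, and HSP90AA1 falls with BaP in PIK3CA cells, from 11.73 or more to 11.36 or less.

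Across all 8 lines, the PIK3CA line had the lowest CYP1A1 and CYP1B1 levels under BaP. Its highest CYP1A1 library stood at 7.24 log2 CPM, below the lowest of the 21 BaP libraries of the other 7 lines at 7.37, which ran to 9.69. For CYP1B1 the corresponding levels were 8.53 against 9.02 to 10.03. The rise of the mean log2 CPM was also the lowest of the 8 lines for both genes, 4.06 against 4.54 to 6.72 for CYP1A1 and 2.65 against 2.76 or more for CYP1B1. The test against the mean of the 7 other lines passed for neither gene in any fit, nor did CYP1B1 against HcRed cells. The mean CYP1B1 level with DMSO was also the lowest of the 8 lines, 5.78 against 5.83 or more. TIPARP and NQO1 did not share this rank, and the other targets were not ranked across the lines. TIPARP rose by 1.25 in PIK3CA cells against 1.06 to 1.79 elsewhere, and rose more in 6 of the 7 other lines. NQO1 rose by 0.93 against 0.60 to 1.37, and more in 4 of them. As a test of the response itself, the CYP1A1 log2 fold change was 3.73 lower in PIK3CA than in HcRed cells, with an adjusted p of 0.0987 by limma-voom, 0.00264 by edgeR's quasi-likelihood test, 0.0371 after the correction and 1.0 by DESeq2. Within limma-voom it ran from 3.9e-05, where means under 10 counts were left out, to 0.846 in the fit of all 95 libraries and 0.972 at equal depth, where the difference was -2.38, so the call depended on tool, filter, design and depth. Within PIK3CA cells, CYP1A1 reached 6.98 to 7.25 log2 CPM with CSC, about the level with BaP, and 5.17 to 5.77 with NNK.

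**Figure D3:**
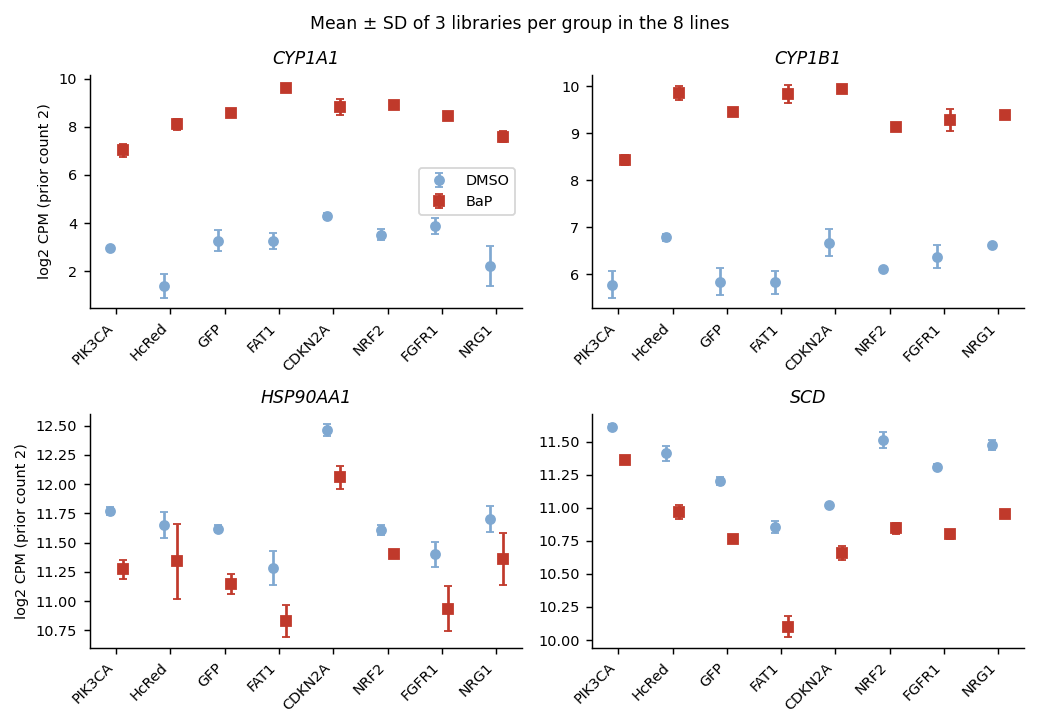
Level (log2 CPM, y axis) of CYP1A1, CYP1B1, HSP90AA1 and SCD under DMSO and BaP in the 8 lines, mean ± SD over 3 libraries per group. The PIK3CA line has the lowest CYP1A1 and CYP1B1 levels under BaP and the mildest fall of SCD. Its fall of HSP90AA1 is the largest by a small margin (-0.50, against -0.47 in the GFP line).

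The receptor complex did not rise with its targets. AHR and its partner ARNT had log2 fold changes of -0.05 and -0.04 (limma-voom adjusted p = 0.81 and 0.905), and their sign turned after the correction (0.17 and 0.01). Of the 10 tested members of the complex, both cytosolic HSP90 genes fell and none rose, in both lines, and in PIK3CA cells also after the correction. HSP90AA1 went from 11.77, 11.73 and 11.81 to 11.36, 11.24 and 11.21 log2 CPM, a log2 fold change of -0.46 (limma-voom adjusted p = 1.34e-22) against -0.24 in HcRed cells, and HSP90AB1 changed by -0.29 against -0.22. The fall of the mean HSP90AA1 level, 0.50 on the log2 scale, was the largest of the 8 lines by a small margin, the others lying between -0.47 and -0.20. The difference from the mean of the 7 other lines passed in no fit for this gene. The difference from HcRed cells did not pass the limma-voom test, but passed in some refits. The wider heat shock group, chaperones that fold cytosolic and mitochondrial proteins, also fell. Its list overlaps that of the receptor complex, so the counts of both are not separate. Of 12 tested members 8 fell and none rose, and 5 fell after the correction. In HcRed cells 4 of 13 fell, and none after the correction. The median log2 fold change in PIK3CA cells was -0.33. HSPH1 changed by -0.49, HSPD1, the mitochondrial chaperonin, by -0.43, and HSPA8 by -0.22.

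NRF2 targets, the antioxidant and iron storage genes, rose. Of 20 tested, 10 rose and none fell (9 after the correction, 13 in HcRed cells), all 20 log2 fold changes were above 0 in both lines, and their median was 0.60. FTL, the ferritin light chain, rose from 8.32, 8.44 and 8.27 to 9.68, 9.65 and 9.59 log2 CPM, by 1.31 (limma-voom adjusted p = 1.81e-26) against 1.43 in HcRed cells. FTH1, its heavy chain partner, rose by 0.73 against 0.55, TXNRD1, thioredoxin reductase, by 0.46 against 0.72, and TKT of the pentose phosphate pathway by 0.59 against 0.53. Across the 8 lines, the FTL rise in PIK3CA cells (1.30 on the mean log2 CPM) lay within the others' range of 1.24 to 1.66.

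Immediate early genes, transcription factors that switch on within minutes of a signal, had the largest share of rises among the gene lists tested. Of 14 tested AP-1 and early genes 11 rose and none fell (7 after the correction, 9 in HcRed cells), with a median log2 fold change of 0.996. EGR1, a zinc finger factor (hg19 chr5:137801168-137804992) whose promoter is given above, had 232, 238 and 154 counts with DMSO and 615, 513 and 443 with BaP. These were 7.85, 7.38 and 7.20 against 9.29, 9.33 and 9.18 log2 CPM, a log2 fold change of 1.83 ± 0.09 (limma-voom adjusted p = 4.53e-26) against 2.12 in HcRed cells. The SD over libraries was 0.34 with DMSO and 0.07 with BaP, while the SE rests on a spread pooled over genes. FOS, an AP-1 subunit, went from 14, 26 and 20 to 56, 62 and 55 counts and rose by 1.98 against 2.35. In both genes every BaP library lay above every DMSO library. JUNB, another subunit, rose by 1.03 (0.48 in HcRed cells, where it did not pass the test) and MYC by 0.75 against 1.06. FOSL1 had 25, 34 and 4 counts against 53, 35 and 30, and its log2 fold change of 1.71 fell to 0.94 without DMSO replicate 3, which held the 4.

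Of 18 tested EGF receptor ligands and ERK feedback genes 6 rose and none fell, and 4 rose after the correction. Of all genes 5.5% rose, and 0.936% after the correction. EREG, the ligand epiregulin, rose by 0.91 ± 0.15 (1.01 in HcRed cells), PHLDA1 by 0.76 ± 0.14 (1.01) and DUSP4, a phosphatase that limits MAPK signalling, by 0.61 ± 0.14. Of 14 tested IL-1 family and chemokine genes, IL1A, an alarmin of epithelia, rose by 1.22 ± 0.19 (1.54 in HcRed cells), and no other member passed the test in PIK3CA cells, with or without the correction. The EREG and IL1A rises of the mean log2 CPM, 0.85 and 1.19, lay within the range of the other 7 lines, 0.38 to 1.19 and 1.08 to 1.63.

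Of 24 tested p53 targets only CDKN1A passed, where 5.5% of all genes rose and 5.4% fell. CDKN1A, the p21 inhibitor of cyclin dependent kinases, rose from 6.49, 6.77 and 6.61 to 7.70, 7.75 and 7.68 log2 CPM, by 1.10 (limma-voom adjusted p = 3.72e-12) against 0.96 in HcRed cells, and by 0.75 after the correction. No other member passed after the correction. The median of the p53 list was 0.05, close to that of all genes. Of 24 tested genes of adduct repair 2 fell and none rose, against the same shares of all genes. None passed after the correction or in HcRed cells.

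Genes of mitosis fell together. Of 22 tested 17 fell and none rose, all 22 log2 fold changes were below 0, and their median was -0.44. After the correction 11 fell, 21 were below 0 and the median was -0.29, and in HcRed cells 4 fell, with a median of -0.19. CENPE, a kinetochore motor, went from 9.70, 9.78 and 9.76 to 8.85, 8.89 and 9.02 log2 CPM, a log2 fold change of -0.82 (limma-voom adjusted p = 5.22e-19) against -0.50 in HcRed cells. TOP2A, a topoisomerase of dividing cells, changed by -0.64 (-0.40 in HcRed cells), CENPF by -0.61 (-0.42), MKI67, the proliferation marker, by -0.49 (-0.29) and TPX2, a spindle factor, by -0.33 (-0.21). Each was larger in PIK3CA than in HcRed cells, but no difference between the lines passed the test with all 12 libraries. Across the 8 lines the fall of the mean log2 CPM in PIK3CA cells was within the others' range for CENPE (-0.83 against -0.93 to -0.57), TOP2A (-0.65 against -0.79 to -0.44) and MKI67 (-0.51 against -0.61 to -0.34). Replication genes moved both ways, with 4 higher and 3 lower of 24 tested, where 5.5% of all genes rose and 5.4% fell. MCM2 and MCM5 of the replicative helicase had log2 fold changes of 0.49 and 0.56, and none of the 24 passed after the correction or in HcRed cells.

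**Figure D4:**
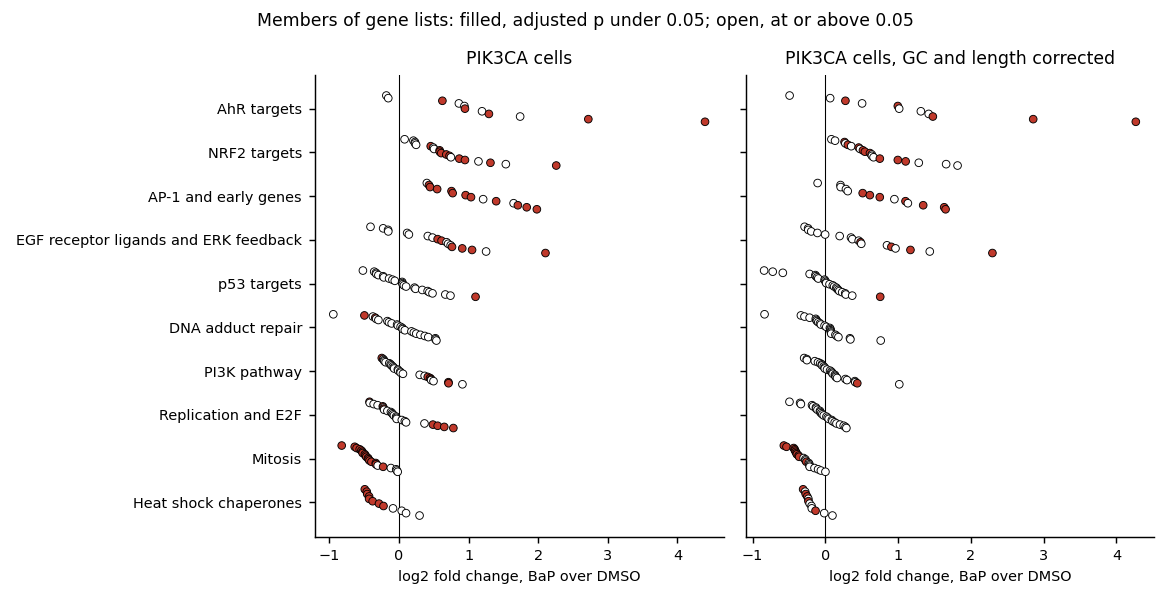
Log2 fold change (BaP over DMSO, x axis) of every tested gene in 10 gene lists in PIK3CA cells, without (left) and with (right) the correction for GC content and length. Filled points passed an adjusted p of 0.05. All 22 mitosis genes lie below 0 on the left and 21 on the right, and all 20 NRF2 targets lie above 0 on the left.

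Genes of the pathway that the construct acts on moved in both directions. Of 26 tested PI3K pathway genes 5 rose and 1 fell, where 5.5% of all genes rose and 5.4% fell. After the correction 1 rose and none fell, and in HcRed cells 1 rose and 1 fell. The median log2 fold change in PIK3CA cells was 0.0031. INPPL1, a lipid phosphatase, rose by 0.71, AKT1, the kinase downstream of PI3K, by 0.46, MLST8, an mTOR subunit, by 0.71, and TSC2 and TSC1, the brake on mTOR, by 0.45 and 0.41. RPS6, a ribosomal protein that the pathway phosphorylates, changed by -0.25. TSC1 alone kept its call after the correction, and it lost it without BaP replicate 1 (0.34, limma-voom adjusted p = 0.101). Of 12 tested FOXO targets 2 rose, IRS2, an adaptor of the insulin receptor, by 0.62 (0.78 in HcRed cells), and TXNIP, which restrains glucose uptake, by 0.53 (0.07), and TXNIP alone passed after the correction. Its call was lost without BaP replicate 2 (0.44, limma-voom adjusted p = 0.0595).

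By size, the 12 leading rises included CYP1A1, CYP1B1, FOS, EGR1 and FOSL1 above, and ANGPTL4, a secreted lipase inhibitor (1.94 ± 0.40, and 1.31 with an SE of 0.71 in HcRed cells), NLRC5, a regulator of MHC class I genes (1.84, and 0.98 in HcRed cells), CYGB, cytoglobin (1.77, and 2.11), and the uncharacterized LOC101927751 (1.68, and 1.36). DISP2 (1.67), APBA3 (1.65) and LRFN3 (1.63) complete them, at 0.22, 0.80 and -0.15 in HcRed cells, and none of these 3 calls was steady. APBA3 and LRFN3 lost theirs after the correction (1.16 and 1.18), and DISP2 without DMSO replicate 2 (1.21, limma-voom adjusted p = 0.0609).

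ULK4, a pseudokinase (hg19 chr3:41288090-42003622), was among the deepest falls. It had 49, 55 and 51 counts with DMSO and 19, 9 and 7 with BaP in PIK3CA cells, or 5.66, 5.33 and 5.65 against 4.42, 3.74 and 3.50 log2 CPM, with no overlap between the groups. The log2 fold change was -1.68 (limma-voom adjusted p = 2.51e-05) against -1.23 in HcRed cells. The call was lost in the fit of all 95 libraries, where the fold change was -1.68 as well. The lines did not share a direction: the mean log2 CPM was lower with BaP in the GFP and FGFR1 lines too (-1.52 in each) and higher in the NRG1 (2.30), FAT1 (1.08), CDKN2A (1.02) and NRF2 (0.35) lines, and libraries of 1 group differed by an SD of up to 3.13.

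Among the leading falls, ULK4 and the uncharacterized LOC100506548 (-1.04, and -0.81 in HcRed cells) kept the call when each of the 6 libraries was left out in turn. A further 8 kept it in 1 to 4 of the 6, over a log2 fold change of -1.87 to -0.82. They were LOC389831 (-1.57), SNORD15B (-1.39), the chaperone CLGN (-1.35), PRKXP1 (-1.28), SNORD110 (-1.17), THAP1 and ZNF681 (-1.09 each) and SH3RF2 (-1.06). SNORD15B and SNORD110 are small nucleolar RNAs within host genes and PRKXP1 is a pseudogene, so the reads assigned to them are uncertain.

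Most changes of the PIK3CA line had the same sign in its vector control. HcRed cells had 672 of 14240 genes changed (4.72%), 380 higher and 292 lower. Of the genes called in PIK3CA cells, 1465 of 1539 tested in both (95.2%) had the same sign in HcRed cells, against 69.2% of all 13630 genes tested in both. These shares are without the correction. The median GC content was 60.3% for the rises and 41.1% for the falls in PIK3CA cells, against 49.0% for all tested. Both lines followed GC content, and its part in the shared signs was not tested. In all, 230 genes rose in both lines (29.6% of the rises in PIK3CA and 60.5% of those in HcRed cells), 171 fell in both (22.4% and 58.6%), and 0 were called in opposite directions. The genes that rose in PIK3CA cells had a median log2 fold change of 0.38 in HcRed cells, and those that fell -0.24. Spearman's rho across genes was 0.43, and 0.24 over 12830 genes after the correction, in which 93 genes were called in both lines and 1.39% of the genes tested in HcRed cells passed.

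**Figure D5:**
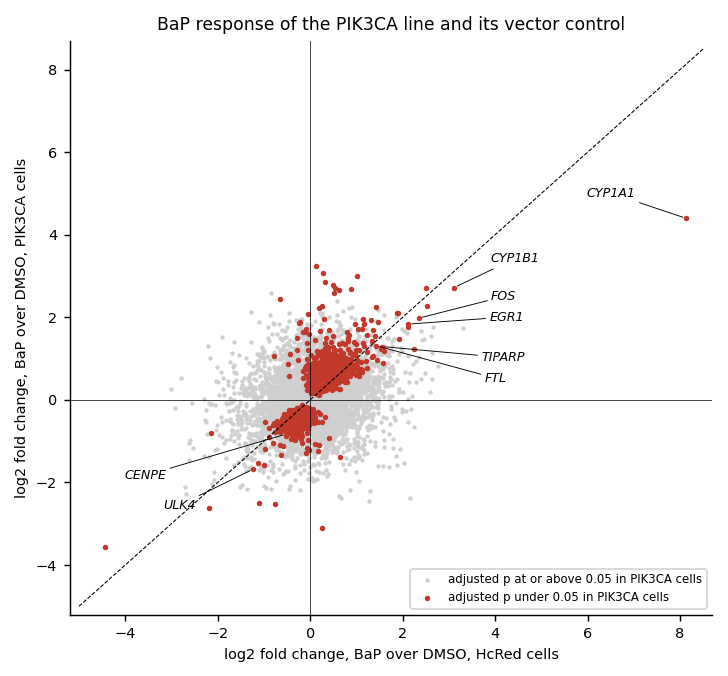
Log2 fold change (BaP over DMSO) of each gene tested in both lines, HcRed cells on the x axis and PIK3CA cells on the y axis. Red points passed an adjusted p of 0.05 in PIK3CA cells, the dashed line marks equal change, and CYP1A1 (4.40 in PIK3CA and 8.13 in HcRed cells) lies below it.

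The difference between the lines passed the limma-voom test for 1 of 14323 genes (0.00698%), and for 795 at an unadjusted p under 0.05. After the correction 2 genes passed (0.0149%), CYP1A1 among them (adjusted p = 0.0371, as above).

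Against the mean of the other 7 lines, 1 of 14392 genes passed (0.00695%). SCD, the stearoyl-CoA desaturase that makes monounsaturated fatty acids (hg19 chr10:102106990-102124583), fell less in PIK3CA cells than elsewhere. Its levels were 11.60, 11.63 and 11.60 log2 CPM with DMSO and 11.36, 11.37 and 11.35 with BaP, a log2 fold change of -0.24 ± 0.02 (limma-voom adjusted p = 1.96e-13) against -0.45 in HcRed cells. For this fall the adjusted p was 6.55e-06 by edgeR's quasi-likelihood test and 2.91e-05 by DESeq2. The difference from HcRed cells did not pass the limma-voom test, but passed in some refits. The response was 0.28 ± 0.03 higher than the mean of the 7 lines (limma-voom adjusted p = 8.22e-09), whose own changes ran from -0.76 to -0.36 on the mean log2 CPM. DESeq2 gave the same call (adjusted p = 8.23e-05), edgeR's quasi-likelihood test did not (0.154), and SCD was again the gene that passed after the correction (0.00741%). With CSC and NNK, SCD in PIK3CA cells stood at 11.47 to 11.52 and 11.61 to 11.77 log2 CPM.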

How the data were processed

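Whole-number read counts per gene were deposited by the authors, 1 file per library. Per the labels and the study's methods, reads were trimmed with cutadapt 1.12, checked with FastQC 0.11.5, aligned to hg19 with STAR 2.5.2b and counted over RefSeq genes with featureCounts. Counts were used as deposited, and no column was of a sample outside the labels. Groups were taken from the labels.

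Genes with a mean count above 1 over the libraries compared were kept. Counts were scaled by TMM (edgeR 4.0.16) and fitted with limma-voom (limma 3.58.1, R 4.3.3), two-sided, with Benjamini-Hochberg adjustment over all genes tested and a threshold of 0.05. Fits were BaP against DMSO in PIK3CA cells and in HcRed cells (6 libraries each), the difference between both responses (12 libraries), and the PIK3CA response minus the mean of the 7 other lines (48 libraries). Levels are given as log2 CPM (prior count 2). The same comparisons were refitted with DESeq2 1.42.0, the quasi-likelihood test of edgeR, DESeq2 size factors, other filters on low counts, sample quality weights, thinning to equal depth, a replicate block, loess correction (span 0.3) of the counts for GC content and length, all 95 libraries in 1 fit, and leaving out each library. GC content was found by symbol for 24309 of 27978 genes and 93.8% of those tested. Intervals cover counting error only, since reads are no independent molecules.

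The genes named were PIK3CA and CYP1A1, the 12 largest rises and falls among calls whose groups did not overlap (mean count 10 or more), members of gene lists past the threshold (at most 5 in each direction per list, by p) with all AhR and PI3K pathway members, and calls of the differences between lines with a mean count of at least 10. Some genes that these rules select are not reported here. Members and lists were chosen with earlier results of these data known.

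On simulated counts limma-voom found 54.5% of genes changed 2-fold and 96.5% changed 4-fold in the PIK3CA comparison (14144 genes), and 7.5% and 82% for the difference between the lines. Changed genes were drawn from those with a mean count of at least 10. All genes had the same fixed spread, which was not estimated from these libraries, so these shares hold for that setting only. With a GC trend added to simulated counts, 19.0% of calls were unchanged genes, and 2.78% with the correction. That trend was of the kind that the correction is built to remove. 3 counts were taken as the floor of detection.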

Additional observations from a re-analysis of the deposited data

Results flagged for a closer look

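SCD stood out because its BaP response in PIK3CA cells differed from the mean of the 7 other lines (0.28 on the log2 scale, limma-voom adjusted p = 8.22e-09). It fell in every line and least in PIK3CA cells.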

How the results depend on the processing

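The PIK3CA comparison called 1540 genes, and 443 by DESeq2 (201 higher and 242 lower), 315 with the GC and length correction (39.4% higher, against 50.5%) and 450 with the correction and a replicate block. Leaving out 1 library gave 958 to 1328, the lowest without BaP replicate 2. HcRed cells called 672 genes, 161 by DESeq2, 186 with the correction, 345 with it and the block, 269 at equal depth, and 269 to 715 with 1 library left out (358 without BaP replicate 1, and 353 and 269 without DMSO replicates 1 and 3). The difference between the lines, 1 gene, became 3 by edgeR, 2 with DESeq2 size factors, 5 over all genes with a read, 2 at a mean count of at least 10, 4 with the replicate block, 2 with the correction and 2 with it and the block. It became 0 by DESeq2 (255 at an unadjusted p under 0.05, 795 by limma-voom), 0 in the fit of all libraries (777 unadjusted) and 0 at equal depth (622 unadjusted). With 1 library left out it was 0 to 10, at 0 without PIK3CA BaP replicates 1 and 3, PIK3CA DMSO replicate 1 and HcRed DMSO replicate 3, at 2 without PIK3CA DMSO replicate 3 or HcRed DMSO replicate 1, and at 10, CYP1A1, CENPE, MKI67 and TOP2A among them, without HcRed BaP replicate 3, the shallowest library. The difference from 7 lines, 1 gene, became 2 with DESeq2 size factors, 4 over all genes with a read, 2 with quality weights, and 1 to 2 with 1 library left out (2 without PIK3CA DMSO replicate 3). It was not run at equal depth.

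Of 77 genes traced in PIK3CA cells, 60 kept direction and call by DESeq2, 77 by edgeR, 56 of the 74 with known GC content with the correction, 72 in the fit of all libraries and 72 at equal depth. Log2 fold changes that turned sign with the correction, and with it and the block, were those of PIK3CA (0.13 and 0.12), AHR (0.17 and 0.18), ARNT (0.0098 and 0.036) and DDIT4 (-0.23 in both). ARNT also turned at equal depth (0.069) and without BaP replicate 1 or DMSO replicate 2 (range with 1 library left out -0.12 to 0.094). The cause was not tested. Whether replicate numbers pair the samples was not settled. In PIK3CA cells, deviations of same-numbered libraries correlated at 0.0145 to 0.0253, above those of differently numbered ones at -0.0316 to 0.00858. In HcRed cells the ranges overlapped, at -0.0335 to 0.0347 and -0.0242 to 0.0576. The block gave 1929 calls in PIK3CA cells, against 1540 without it. At this depth 3 counts stood for up to 3.93 CPM.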

Other observations

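Further gene lists are given here against 5.5% of all genes that rose and 5.4% that fell in PIK3CA cells, or 0.936% and 1.44% after the GC and length correction. Of 20 tested ATF4 response genes 5 rose and none fell, and 3 rose and 1 fell after the correction, with the median log2 fold change at 0.25 and 0.021. SLC3A2, the partner of SLC7A5 in amino acid transport, rose by 0.56 (0.43 in HcRed cells) and TRIB3, a pseudokinase of the stress response, also rose, with 35, 41 and 24 counts against 52, 58 and 46. DDIT4, an mTOR inhibitor, rose by 0.27 (0.65 in HcRed cells), a call lost without BaP replicate 3 (0.18) and of opposite sign after the correction. Of 16 tested genes of the unfolded protein response 2 rose and 4 fell, among them SEL1L (-0.54) and HSP90B1 (-0.34), both of the endoplasmic reticulum, and none rose and 2 fell after the correction. Of 20 tested cholesterol synthesis genes 4 rose and 1 fell, against 1 higher and none lower after the correction.

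Of 24 tested TGF-β and matrix genes 7 rose and 2 fell, and 3 rose and 2 fell after the correction. SNAI2, a transcription factor of epithelial plasticity, rose by 0.91 (0.62 in HcRed cells), PLAU, urokinase, by 0.82 (0.01) and TGFBI by 0.43 (0.54), and FN1, fibronectin, changed by -0.47 (-0.61). Of 17 tested basal cell markers 3 rose and 5 fell, and none rose and 5 fell after the correction. ITGA6 changed by -0.47, DST by -0.38 and KRT14 by -0.38 (-0.50 in HcRed cells). Of 19 tested glycolysis and hypoxia genes 6 rose and 2 fell, with GAPDH at 0.45, NDRG1 at 0.53 and LDHA at -0.37, and 2 rose and 1 fell after the correction, which brought the median from 0.24 to 0.041. Of 22 tested ribosomal protein genes 10 rose and 2 fell, RPLP1 by 0.36, and 1 rose and none fell after the correction, which brought the median from 0.18 to -0.02. Metallothioneins rose in 2 of 6 tested (MT1E by 0.40) and interferon genes in 3 of 18, each list in 1 after the correction, and none of these fell. None of 9 squamous genes passed. Of the markers of other cell types, 1 secretory, 3 ciliated, 3 alveolar, 3 fibroblast, 2 endothelial and 3 immune genes could be tested, and none passed.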
